A study of Homo sapiens with 3 samples.

Results

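Expression of 32 genes of sterol synthesis, uptake and regulation was examined in OCI-AML2 R50 cells treated with romidepsin. The genes were chosen by symbol from 25247 named symbols in the deposited tables. All 32 were found, 31 of them in a row naming 1 gene. TM7SF2 shared its row with its neighbour VPS51, so its value is that of the joint row. OCI-AML2 is an established acute myeloid leukaemia (AML) cell line. Romidepsin is a cyclic peptide that inhibits class I histone deacetylases. There were 2 libraries of OCI-AML2 R50 cells treated with romidepsin for 18 h, called romidepsin 1 and romidepsin 2, and 1 control library of OCI-AML2 R50 cells. Every culture, the control included, was grown in medium with 50 µM Ara-C (cytarabine, the nucleoside analogue of AML chemotherapy) and 15% serum. No source used here gives the romidepsin dose, says whether R50 is a single clone, or says whether the romidepsin libraries came from separate cultures. The p-values therefore describe spread among libraries that may be technical replicates.

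Cells make cholesterol from acetyl-CoA through mevalonate, isoprenyl diphosphates, squalene and lanosterol. When sterols in the endoplasmic reticulum run low, SCAP escorts the SREBP transcription factors to the Golgi for cleavage, and the released factors switch on the genes of sterol and fatty acid synthesis. INSIG proteins hold SCAP back when sterols are plentiful, and the LXR nuclear receptors, which sense oxidised sterols, switch on genes of cholesterol export and of lipoprotein receptor breakdown. AML cells are known for active cholesterol synthesis and uptake.

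Values are FPKM as deposited. By definition FPKM are fragments scaled to gene length and to library size, so levels can be set side by side between genes. The sources used here do not state how library size was taken into account. The summed FPKM of all rows was 668773 in romidepsin 1, 657213 in romidepsin 2 and 790922 in the control. The total number of fragments is not stated. From the steps between low FPKM values, the romidepsin libraries were estimated to be 1.168 and 1.174 times as deep as the control. The estimate assumes FPKM scaled by total fragments, which the sources used here do not state. All 8 myeloid markers (MPO, ELANE, CTSG, CD33, SPI1, PTPRC, LYZ and CSF1R) reached 1 FPKM in every library, with a summed level of 4025 and 3968 FPKM in the romidepsin libraries and 7334 FPKM in the control. LYZ made up most of that sum, with 2630 and 2596 FPKM in the romidepsin libraries and 4258 FPKM in the control. By limma, PTPRC and CSF1R were called higher and the other 6 lower (5 with libraries scaled to the same sum). Over all tested genes, 34.7% were called higher and 41.8% lower as deposited. The lymphoid, erythroid, epithelial and hepatocyte markers summed to at most 3.07 FPKM in any library. Of the fibroblast markers, COL3A1 was listed at 0 in every library while COL1A1 and PDGFRB were below 1 FPKM in the control and higher after romidepsin, a direction fixed by the filter on low values, and the 3 markers summed to 6.12 and 6.08 FPKM in the romidepsin libraries and 0.583 FPKM in the control. In RNA from bulk cultures, fewer cells of a type and less RNA per cell cannot be told apart.

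Promoters of the members are shown because SREBP acts together with the factors NF-Y and Sp1 at many sterol genes. RefSeq promoter windows (GRCh38.p14, 250 bases before to 50 after each start) were matched by symbol for 28 of the 32 members, in 42 windows, and none was matched for ACAT2, FDFT1, SQLE and FASN. The stretches below are the 250 bases before the start, 5′ to 3′, of INSIG1 and INSIG2, which are the paired brakes of SREBP, of MVD, the enzyme gene with the largest rise, of SREBF2, and of SCD, the member with a promoter entry that fell most. Capitals mark TCACNCCAC (a core of the sterol regulatory element), CACGTG (the E-box) and CCAAT (the NF-Y box) on either strand, so that CCAAT on the minus strand reads ATTGG. No marked motifs overlapped each other.
INSIG1 (chr7:155297628-155297877, + strand): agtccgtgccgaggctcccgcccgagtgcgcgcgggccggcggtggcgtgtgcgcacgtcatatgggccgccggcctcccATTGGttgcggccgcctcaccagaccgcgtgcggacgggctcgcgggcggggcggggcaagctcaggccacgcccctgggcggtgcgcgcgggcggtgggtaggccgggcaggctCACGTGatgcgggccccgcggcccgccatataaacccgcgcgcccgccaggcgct
INSIG2 (chr2:118088221-118088470, + strand): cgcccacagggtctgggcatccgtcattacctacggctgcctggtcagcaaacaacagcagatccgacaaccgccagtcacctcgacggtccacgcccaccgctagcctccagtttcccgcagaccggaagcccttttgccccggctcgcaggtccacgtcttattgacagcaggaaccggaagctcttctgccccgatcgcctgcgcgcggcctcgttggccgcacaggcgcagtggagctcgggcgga
MVD (chr16:88663092-88663341, - strand): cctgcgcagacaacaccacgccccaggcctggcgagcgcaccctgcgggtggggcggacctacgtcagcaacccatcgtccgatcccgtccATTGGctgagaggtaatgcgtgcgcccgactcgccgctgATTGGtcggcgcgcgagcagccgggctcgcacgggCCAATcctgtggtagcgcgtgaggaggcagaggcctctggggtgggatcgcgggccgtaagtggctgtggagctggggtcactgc
SREBF2 (chr22:41832855-41833104, + strand): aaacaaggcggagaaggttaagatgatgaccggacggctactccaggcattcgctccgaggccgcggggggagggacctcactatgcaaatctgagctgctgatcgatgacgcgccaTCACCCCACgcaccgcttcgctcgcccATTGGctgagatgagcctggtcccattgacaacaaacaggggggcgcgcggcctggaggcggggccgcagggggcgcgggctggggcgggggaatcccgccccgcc
SCD (chr10:100346983-100347232, + strand): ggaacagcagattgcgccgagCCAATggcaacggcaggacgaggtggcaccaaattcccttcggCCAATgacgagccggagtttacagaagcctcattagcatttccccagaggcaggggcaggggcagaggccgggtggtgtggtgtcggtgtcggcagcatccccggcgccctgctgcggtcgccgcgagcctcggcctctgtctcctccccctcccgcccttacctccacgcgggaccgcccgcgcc
In these stretches the sterol element core was in SREBF2, an E-box in INSIG1, and CCAAT once in INSIG1 and SREBF2, 2 times in SCD and 3 times in MVD. INSIG2 had 2 windows, of which the first by position is shown, and it held none of the marked motifs. The GC box GGGCGG, bound by Sp1, was left in lower case.

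Over the whole windows, the sterol element core was found in 1 of the 28 members, SREBF2, and in 1.39% of the 27305 genes with a window (1.13% of 35116 windows). CCAAT was found in 22 of the 28 members, in 61.9% of their windows and in 34.6% of all windows. Of the members with a window that were called higher after romidepsin, 13 of 14 had CCAAT, as had 7 of 11 called lower and 2 of 3 not called, against 43.5% of the 8409 tested genes with a window. GGGCGG was found in 27 of 28 members and in 77.0% of those tested genes, and CACGTG in 4 of 28 members (INSIG1, LSS, SC5D and SCAP) and in 13.0%. Members with several windows had more chances of a match. A match is a description of letters and was not tested as a binding site. Only exact matches were counted, so variant forms of an element and sites outside the windows would be missed.

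The sterol genes did not move together after romidepsin. Of the 32 members, 16 were called higher and 13 lower in romidepsin than in control cells, and 3 were not called (limma, Benjamini-Hochberg adjusted p under 0.05 over all 11708 tested genes, on log2(FPKM + 1)). Over all tested genes, 34.7% were called higher and 41.8% lower, or 76.5% in all. Among the members these shares were 50.0% higher, 40.6% lower and 90.6% in all, so the share called lower was near that of all genes, and nothing particular to the sterol genes is read from the counts. The median change of the members was 0.09 on the log2 scale, against -0.05 for all tested genes. At least 2-fold in both romidepsin libraries, only APOE was higher (7.43% of all tested genes were) and only FASN was lower (3.08% of all). The change of 25 members was at most 0.5 on the log2 scale in either direction.

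The romidepsin libraries lay on the same side of the control for every member, as they did for 95.2% of all tested genes. They lay above it for 16 members and below it for 16, against 43.8% and 51.4% of all tested genes. They differed from each other by at most 0.12 on the log2 scale, for STARD4. The deposited scaling decided part of the calls. With each library scaled to the same summed FPKM, the median of all tested genes moved to 0.16, 19 members were called higher and 6 lower, and the higher ones made 76.0% of the members called instead of 55.2%. The calls of all tested genes shifted the same way, to 5705 higher and 3069 lower from 4057 and 4896 as deposited. Under every setting tried that allowed a test, 14 members were called higher and 6 lower. HMGCS1, MVK, MVD, IDI1, FDFT1, SQLE, HSD17B7, EBP, INSIG1, INSIG2, STARD4, MYLIP, SOAT1 and APOE were higher, apart from APOE not entering the stricter expression filter. PMVK, FDPS, NR1H2, ACLY, FASN and SCD were lower. The share of all tested genes called alike under every setting was not computed. Nothing particular to the sterol genes is therefore read from 14 against 6. Since the control was a single library, the effect of romidepsin and any difference between cultures cannot be told apart.

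**Figure D1:**
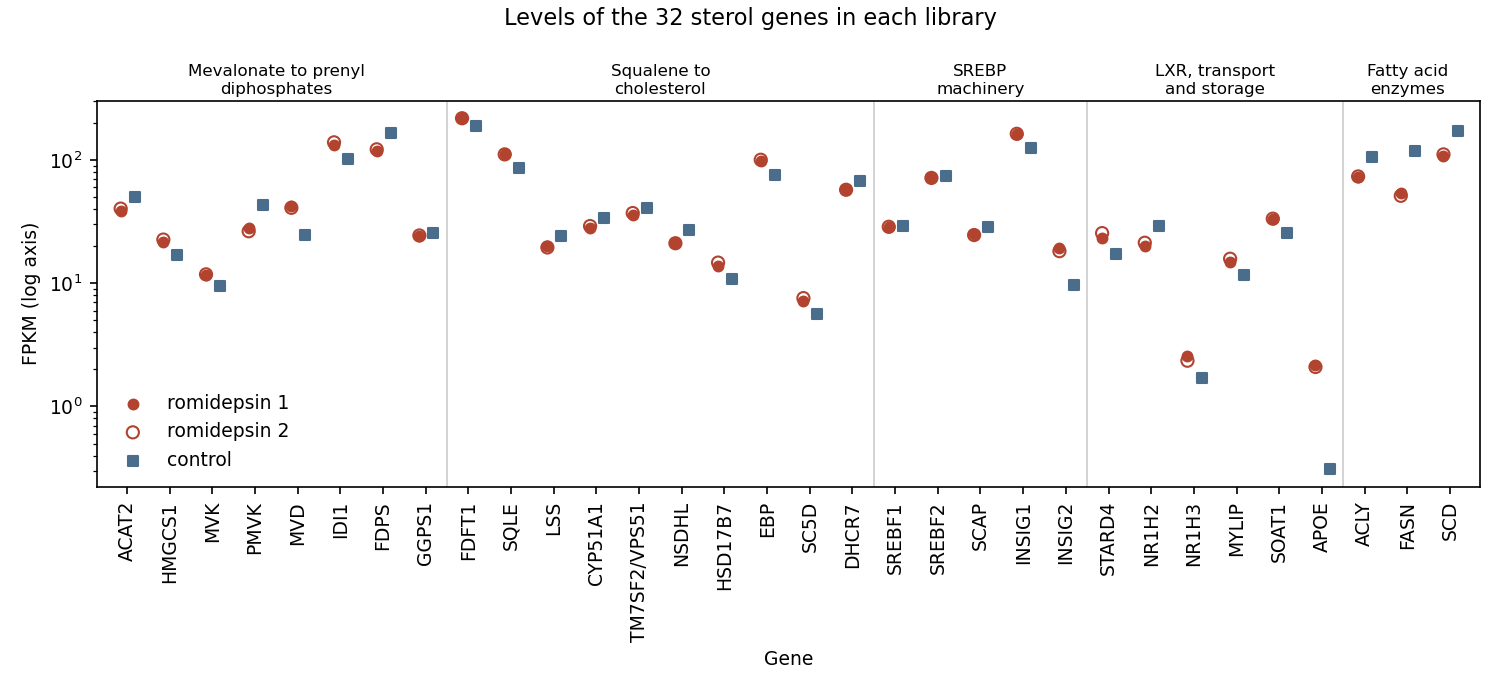
Level of each sterol gene in FPKM (log axis) in romidepsin 1 (filled circle), romidepsin 2 (open circle) and the control (square), with genes ordered by role. The romidepsin pair lay close together, and for GGPS1, SREBF1 and SREBF2 also close to the control. Romidepsin means and control levels ran from 2.13 against 0.311 FPKM for APOE at the bottom to 218 against 187 FPKM for FDFT1 at the top.

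Enzymes from acetyl-CoA to the isoprenyl diphosphates were split, with 4 of 8 called higher, 3 lower and 1 not called. Over all tested genes, 34.7% were called higher and 41.8% lower. ACAT2, the cytosolic thiolase that opens the route, had 38.2 and 40.3 FPKM in romidepsin cells, against 50.5 FPKM in the control. HMGCS1, which makes hydroxymethylglutaryl-CoA, had 21.6 and 22.6 FPKM in romidepsin cells, against 17.0 FPKM in the control. ACAT2 fell by 0.36 (SE 0.047, limma adjusted p = 0.000287), while HMGCS1, at the next step, rose by 0.36 on the log2 scale (SE 0.051, limma adjusted p = 0.000448). The ACAT2 call was lost with libraries scaled to the same sum (limma adjusted p = 0.0627). ACAT2 and its neighbour TCP1 overlap on opposite strands, and since the sources used here do not state whether strand was kept, its reads may include those of TCP1.

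The kinases that phosphorylate mevalonate in turn moved apart. MVK, the mevalonate kinase, had 11.7 and 11.8 FPKM in romidepsin cells, against 9.41 FPKM in the control, a rise of 0.29 (SE 0.056, limma adjusted p = 0.00206). PMVK, the phosphomevalonate kinase, had 28.3 and 26.4 FPKM in romidepsin cells, against 43.2 FPKM in the control, a fall of 0.64 (log2 change -0.64, SE 0.053, limma adjusted p = 2.45e-05). The fall of PMVK was the largest among the 18 synthesis enzymes. MVD, the decarboxylase that makes isopentenyl diphosphate, had 42.2 and 40.9 FPKM in romidepsin cells, against 24.7 FPKM in the control. Its rise of 0.73 (SE 0.044, limma adjusted p = 5.4e-06), or 1.68-fold, was the largest of the 18 enzymes. IDI1, the isopentenyl diphosphate isomerase, was also higher in both romidepsin libraries, at 132 and 139 FPKM against 102 FPKM in the control (log2 change 0.40, SE 0.041, limma adjusted p = 7.62e-05).

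Of the prenyl diphosphate synthases, FDPS was called lower and GGPS1 was not called. FDPS, the farnesyl diphosphate synthase, had 118 and 122 FPKM in romidepsin cells, against 165 FPKM in the control (log2 change -0.46, SE 0.037, limma adjusted p = 2.24e-05). Processed pseudogenes of FDPS exist, so part of its reads may be shared with them. GGPS1, which extends farnesyl to geranylgeranyl diphosphate, had 24.2 and 24.4 FPKM in romidepsin cells and 25.7 FPKM in the control, with no call (log2 change -0.08, SE 0.045, limma adjusted p = 0.155). GGPS1 was 0.16 higher and called with libraries scaled to the same sum (limma adjusted p = 0.018).

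From squalene to cholesterol, 5 of 10 enzymes were called higher and 5 lower, against 34.7% and 41.8% of all tested genes. Those called higher were at the entry and among the later steps. FDFT1, the squalene synthase and the most abundant of the 32 members in the romidepsin libraries and in the control, had 218 FPKM in each romidepsin library, against 187 FPKM in the control. SQLE, the squalene epoxidase and a rate-limiting step, had 112 and 111 FPKM in romidepsin cells, against 86.8 FPKM in the control. FDFT1 rose by 0.22 (SE 0.032, limma adjusted p = 0.000497) and SQLE rose by 0.36 (SE 0.034, limma adjusted p = 5.47e-05).

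The next 4 rows in the order used here were called lower, 3 of single enzymes and 1 joint row. LSS, the lanosterol synthase, had 20.1 and 19.5 FPKM in romidepsin cells, against 24.3 FPKM in the control. CYP51A1, the lanosterol demethylase, had 28.3 and 29.1 FPKM in romidepsin cells, against 34.1 FPKM in the control. NSDHL, a dehydrogenase of the demethylation, had 21.2 and 21.1 FPKM in romidepsin cells, against 26.9 FPKM in the control. These 3 enzymes fell by 0.28, 0.24 and 0.33 on the log2 scale, with limma adjusted p = 0.00116, 0.00167 and 0.000352. The joint row of TM7SF2, a sterol reductase, and VPS51, a vesicle tethering gene, had 36.0 and 37.1 FPKM in romidepsin cells, against 40.8 FPKM in the control. Its fall of 0.16 (limma adjusted p = 0.0123) cannot be assigned to either gene. None of the 4 was called with libraries scaled to the same sum, with limma adjusted p = 0.34 for LSS, 0.862 for CYP51A1, 0.0768 for NSDHL and 0.14 for the joint row.

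Of the later enzymes, HSD17B7, the sterol ketoreductase, had 13.7 and 14.7 FPKM in romidepsin cells, against 10.9 FPKM in the control. A pseudogene nearly identical to HSD17B7 may share its reads. EBP, the sterol isomerase, had 98.8 and 100.4 FPKM in romidepsin cells, against 75.3 FPKM in the control. SC5D, the sterol desaturase, had 7.16 and 7.57 FPKM in romidepsin cells, against 5.67 FPKM in the control. These 3 genes rose by 0.35, 0.40 and 0.33 on the log2 scale, with limma adjusted p = 0.00118, 3.71e-05 and 0.00361. The SC5D call was lost when no filter on low values was applied (limma adjusted p = 0.0502). DHCR7, the last reductase of the route, had 57.6 and 57.3 FPKM in romidepsin cells, against 66.9 FPKM in the control, a fall of 0.22 (log2 change -0.22, limma adjusted p = 0.00121) that was not called with libraries scaled to the same sum (limma adjusted p = 0.614).

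**Figure D2:**
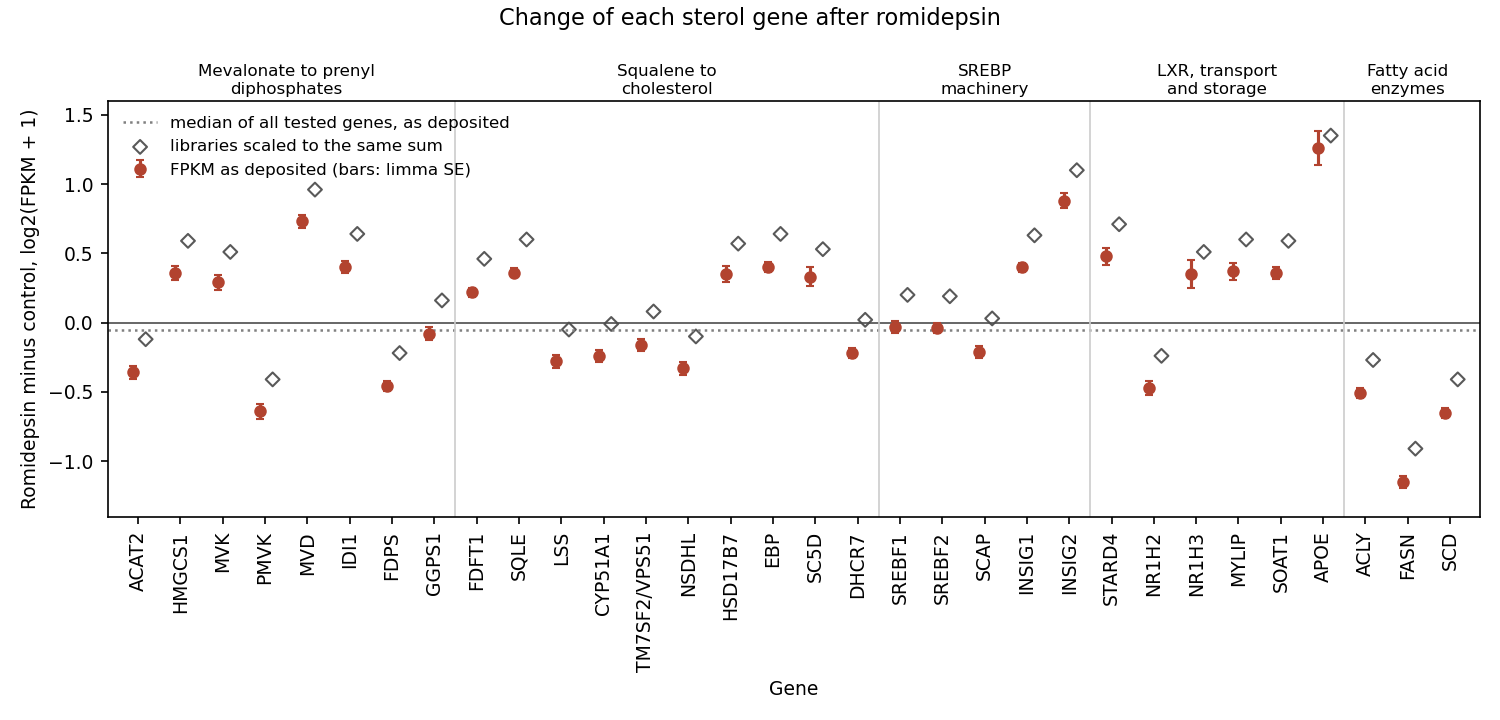
Difference of log2(FPKM + 1), romidepsin minus control, for each sterol gene, as deposited (circles, with limma SE) and with libraries scaled to the same sum (diamonds), ordered by role. Both synthesis groups hold genes above and below zero, while ACLY, FASN and SCD lay below zero under either scaling and the GGPS1, SREBF1 and SREBF2 circles lay close to it.

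The genes for the SREBP factors themselves showed little difference, and the brakes on them rose. SREBF1, which encodes the factor best known for fatty acid synthesis genes, had 28.5 and 28.7 FPKM in romidepsin cells and 29.2 FPKM in the control (log2 change -0.03, SE 0.043, limma adjusted p = 0.522). SREBF2, which encodes the factor best known for sterol genes, had 72.6 and 71.5 FPKM in romidepsin cells and 74.3 FPKM in the control (log2 change -0.04, SE 0.037, limma adjusted p = 0.303). SREBF1 and SREBF2 were called 0.20 and 0.19 higher with libraries scaled to the same sum, with limma adjusted p = 0.00549 and 0.00296, close to the 0.16 by which the median of all genes was then higher. The ratio of SREBF1 to SREBF2, which does not depend on the scaling, was 0.392 and 0.401 in romidepsin cells and 0.393 in the control.

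SCAP, the SREBP escort, had 25.0 and 24.6 FPKM in romidepsin cells, against 28.8 FPKM in the control, a fall of 0.21 (log2 change -0.21, limma adjusted p = 0.00388) that was not called with libraries scaled to the same sum (limma adjusted p = 0.601). INSIG1, the brake that is itself an SREBP target, had 162 and 163 FPKM in romidepsin cells, against 124 FPKM in the control. INSIG2, its paralogue, had 19.2 and 18.2 FPKM in romidepsin cells, against 9.70 FPKM in the control. INSIG1 rose by 0.40 (SE 0.033, limma adjusted p = 2.62e-05) and INSIG2 rose by 0.88 (SE 0.056, limma adjusted p = 7.26e-06), or 1.93-fold. INSIG1 had 8.44 and 8.97 times the FPKM of INSIG2 in romidepsin cells and 12.7 times in the control. The difference between the changes of paralogues was not tested.

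**Figure D3:**
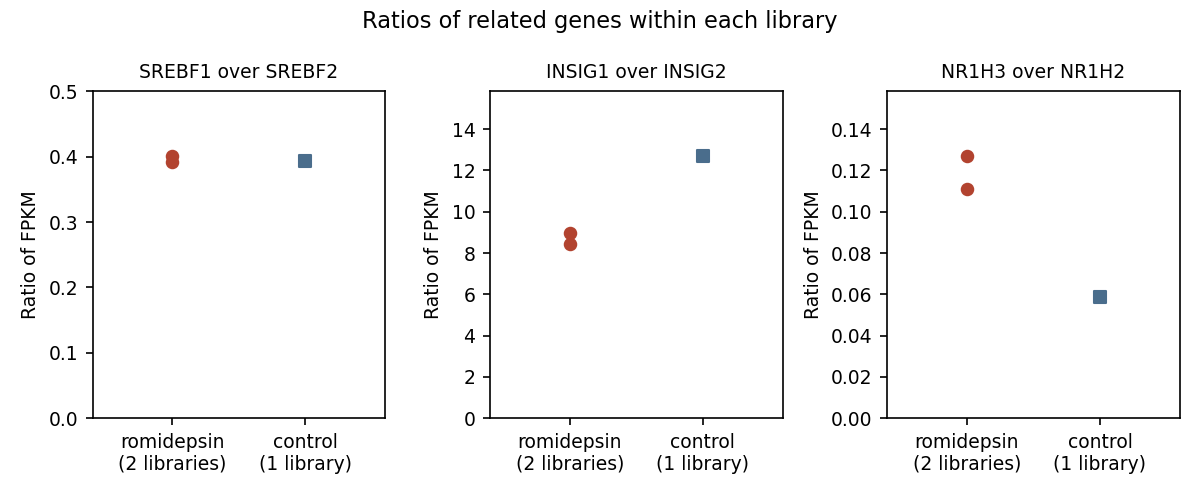
Ratio of FPKM between related genes within each library, for the 2 romidepsin libraries (circles) and the control (square). The SREBF1 to SREBF2 ratio of the control, 0.393, lay between those of the romidepsin pair, the INSIG1 to INSIG2 ratio was lower in romidepsin cells, and the NR1H3 to NR1H2 ratio was higher.

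Of the 6 genes of LXR signalling, sterol transport and storage, 5 were called higher and NR1H2 was called lower, against 34.7% and 41.8% of all tested genes. The direction of APOE, 1 of the 5, was fixed by the filter on low values. NR1H2, which encodes the broadly expressed LXR beta, had 20.2 and 21.3 FPKM in romidepsin cells, against 29.2 FPKM in the control, a fall of 0.47 (log2 change -0.47, SE 0.051, limma adjusted p = 9.64e-05). NR1H3, which encodes LXR alpha, the form of macrophages and liver, had 2.57 and 2.35 FPKM in romidepsin cells, against 1.71 FPKM in the control, a rise of 0.35 (SE 0.10, limma adjusted p = 0.0158). The NR1H3 call was lost with quantile normalization (limma adjusted p = 0.666) and with no filter on low values (limma adjusted p = 0.0663). NR1H3 stood at 0.127 and 0.111 times NR1H2 in romidepsin cells and at 0.0586 times in the control, so NR1H2 was the more abundant in all 3 libraries.

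APOE, the apolipoprotein that macrophages secrete with exported cholesterol and an LXR target, had 2.17 and 2.09 FPKM in romidepsin cells, against 0.311 FPKM in the control. It was the only member of the 32 below 1 FPKM in the control and was tested because the romidepsin values exceeded 1 FPKM, which fixed its direction. Its rise was 1.26 on the log2(FPKM + 1) scale (SE 0.12, limma adjusted p = 4.48e-05), and with quantile normalization it was no longer at least 2-fold. MYLIP, the LXR target that marks lipoprotein receptors for breakdown, had 14.8 and 15.8 FPKM in romidepsin cells, against 11.6 FPKM in the control. It rose by 0.37 (SE 0.06, limma adjusted p = 0.000836).

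Of the transport and storage genes, STARD4, a carrier of cholesterol between membranes, had 23.3 and 25.5 FPKM in romidepsin cells, against 17.3 FPKM in the control. SOAT1, which esterifies cholesterol for storage in droplets, had 32.9 and 33.4 FPKM in romidepsin cells, against 25.7 FPKM in the control. STARD4 rose by 0.48 (SE 0.061, limma adjusted p = 0.000251) and SOAT1 rose by 0.36 (SE 0.043, limma adjusted p = 0.000185). Beside these genes, 4 of 8 markers of mature monocytes and macrophages could be tested. These (ITGAM, ITGAX, CD14 and CD68) were each called higher, as were 34.7% of all tested genes. Their changes ran from 0.21 for CD68 to 3.12 for ITGAM on the log2 scale. The 8 markers summed to 94.1 and 94.9 FPKM in romidepsin cells and 56.2 FPKM in the control. Of the 8 myeloid markers, 2 were called higher and 6 lower, with LYZ and SPI1 among the lower. MRC1 was listed at 0 in every library, and CD163, FCGR3A and VCAN were under 1 FPKM. Their part in the change of NR1H3 and APOE was not tested.

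All 3 enzymes of fatty acid synthesis fell, under every setting tried. They were called lower in the main fit, as were 41.8% of all tested genes. ACLY, which makes cytosolic acetyl-CoA from citrate, had 73.4 and 73.5 FPKM in romidepsin cells, against 105 FPKM in the control. FASN, the fatty acid synthase, had 53.7 and 51.2 FPKM in romidepsin cells, against 118 FPKM in the control. SCD, the stearoyl-CoA desaturase, had 108 and 111 FPKM in romidepsin cells, against 172 FPKM in the control. FASN fell by 1.15 on the log2 scale (SE 0.042, limma adjusted p = 6.85e-07), the largest fall of the 32 members and lower than the change of all but 2.07% of tested genes. SCD fell by 0.65 (SE 0.036, limma adjusted p = 4.01e-06) and ACLY fell by 0.51 (SE 0.035, limma adjusted p = 1.02e-05). With libraries scaled to the same sum, FASN fell by 0.91 and with quantile normalization by 0.93, so that the 2-fold rule was then missed.

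Summed by role, the 3 fatty acid enzymes had 235 and 236 FPKM in romidepsin cells, against 395 FPKM in the control. The 10 genes from squalene to cholesterol summed to 613 and 616 FPKM in romidepsin cells and 559 FPKM in the control, and the 8 genes before them to 417 and 428 FPKM in romidepsin cells and 438 FPKM in the control. The direction of the last sum turned with libraries scaled to the same sum, to 441 and 455 in romidepsin cells and 393 in the control. The order of the members by level also differed: SCD was the 6th most abundant in romidepsin cells and the 2nd in the control, and FASN the 11th in romidepsin cells and the 5th in the control. INSIG1 was the 2nd in romidepsin cells and the 4th in the control. The ranges of SQLE and SCD, the 5th and 6th in the romidepsin order, overlapped between the romidepsin libraries, and no test between genes was made.

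Genes of the same routes outside the 32 were counted from 3 further lists, beside 34.7% called higher and 41.8% lower over all tested genes. Of 20 other sterol genes, 9 were called higher (MSMO1, LBR and C14orf1, which act in sterol synthesis, and NPC2 in a joint row with MIR4709, LIPA, OSBP, ERLIN2, ABCA1 and ABCG1), 8 lower (TMEM97, SCARB1, VLDLR, LRP8, ERLIN1, MBTPS2, PLTP and APOC1) and 3 not called, with a median of 0.01. ABCA1 was below 1 FPKM in the control, so the filter fixed its direction, and its call was lost with quantile normalization (limma adjusted p = 0.0619). ABCG1, a cholesterol exporter and LXR target, had the largest rise, at 10.04 and 10.03 FPKM in romidepsin cells against 2.97 FPKM in the control (log2 change 1.48, SE 0.065, limma adjusted p = 1.38e-06). VLDLR, a lipoprotein receptor, had the largest fall, at 11.1 and 10.8 FPKM in romidepsin cells against 22.2 FPKM in the control (log2 change -0.96, SE 0.054, limma adjusted p = 3.95e-06). PLTP and APOC1, which are LXR targets too, were among those called lower, so the LXR targets of this list did not share a direction.

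Of 12 genes that use isoprenyl diphosphates, in ubiquinone and dolichol synthesis and in protein prenylation, 10 were called lower and none higher, with a median of -0.40, against 41.8% called lower and 34.7% higher over all tested genes. RCE1 was read only in a joint row with C11orf80. DHDDS and the joint row of FNTB were not called. RABGGTA, a subunit of the enzyme that prenylates RAB proteins, fell most, with 7.88 and 8.20 FPKM in romidepsin cells against 13.7 FPKM in the control (log2 change -0.71, SE 0.06, limma adjusted p = 2.95e-05). With libraries scaled to the same sum, 8 of the isoprenoid users were called lower and 2 higher. Of 12 further fatty acid genes, 5 were called higher and 6 lower, with a median of -0.13. LPIN1, a phosphatidate phosphatase and coregulator, rose most, with 12.1 and 12.3 FPKM in romidepsin cells against 6.04 FPKM in the control (log2 change 0.91, SE 0.058, limma adjusted p = 7.39e-06). FADS1, a desaturase of polyunsaturated fatty acids, fell most, with 43.9 and 42.6 FPKM in romidepsin cells against 73.7 FPKM in the control (log2 change -0.75, SE 0.04, limma adjusted p = 3.24e-06).

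**Figure D4:**
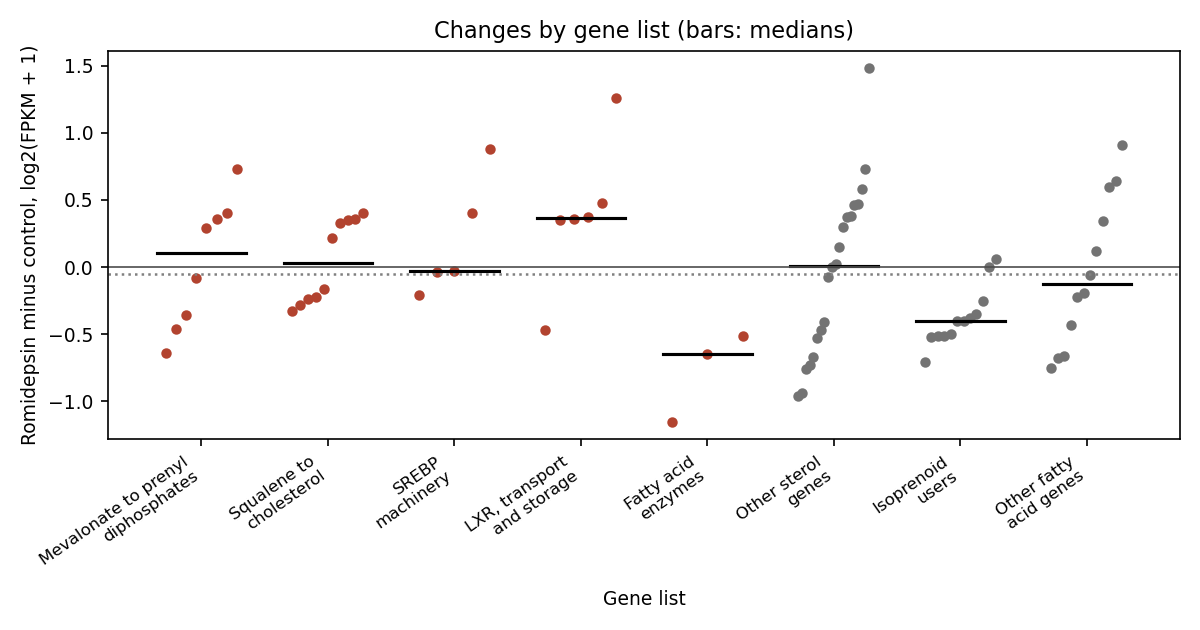
Difference of log2(FPKM + 1), romidepsin minus control, for each gene (points) with the median of its list (bar), for the sterol genes by role and for 3 further lists. The dotted line is the median of all tested genes at -0.05; fatty acid enzymes and isoprenoid users had medians of -0.65 and -0.40, and LXR, transport and storage genes 0.36.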

How the data were processed

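RNA of 3 libraries was read from 1 table each of 28837 rows, holding a gene name and FPKM. The authors deposited FPKM values, per the file headers, and the submitters' processing notes list TopHat, Cufflinks and Cuffdiff with the build hg19, without versions, settings or annotation. The 1770 unnamed rows (21.106% to 22.323% of the summed FPKM) and 27 rows named by a number were left out. Rows were summed per symbol. The 11708 symbols reaching 1 FPKM in at least 1 library were tested in limma 3.58.1 (R 4.3.3; lmFit and eBayes with a mean-variance trend, on log2(FPKM + 1), a scale that understates changes of low genes). The fit had 1 residual and 6.063 prior degrees of freedom, so the spread of the romidepsin pair stood in for that of the single control. Relative depth came from the commonest ratio of low values (49 and 30 genes at it, of 1510 and 1492 compared). Members and lists were chosen with earlier results of these data known; all 32 members are named, and for further lists the largest rise and fall. Besides the genes counted in these lists, 1 gene is not reported here. Alternatives were other scalings, filters, pseudocounts and variance models, and leaving out each romidepsin library. Python 3.11.15, pandas 2.3.3, numpy 2.4.6 and matplotlib 3.10.9 were used.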

Additional observations from a re-analysis of the deposited data

How the results depend on the processing

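With libraries scaled to the same sum of FPKM, 6 sterol genes were called lower, 2 passed the 2-fold rule upward (INSIG2 and APOE) and 0 downward, 3069 of all genes were called lower instead of 4896, and the median of the sterol genes was 0.33 instead of 0.09. With quantile normalization 0 passed it upward and 0 downward, and the median was 0.13. The median was 0.15 with the median ratio to the control set to 0, -0.04 for genes averaging 5 FPKM or more (where 0 passed the 2-fold rule upward, since APOE was not tested), and 0.22 when summed and joined rows were dropped. Direction was reversed with scaling to the same sum for GGPS1 (0.16), TM7SF2 with VPS51 (0.08), DHCR7 (0.02), SREBF1 (0.20), SREBF2 (0.19) and SCAP (0.03), and with quantile normalization for SREBF2 (0.18). Without a call in either fit, the sign also changed with quantile normalization for SREBF1 (0.09) and GGPS1 (0.04). With the median ratio set to 0 it changed, again without a call, for SREBF1 (0.02) and SREBF2 (0.01). Of the 29 members called, 22 kept their call with scaling to the same sum, 24 with quantile normalization, 28 with the median ratio set to 0, 26 with no filter, 28 without the variance trend and 29 with a pseudocount of 0.1. Leaving out 1 romidepsin library leaves 1 against 1 with no test: the median of the members then ranged from 0.09 to 0.10, and no called member changed direction. No paired analysis was possible because the single control shares no numbered pair with the romidepsin libraries. Depth limits APOE and NR1H3 most, whose FPKM were the lowest of the members; absolute fragment counts behind each value are not known.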
